A study of Mus musculus with 16 samples.

Results

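Cish, Socs1, Socs2, Socs3 and Pim1 were followed in CD8+ T cells of accepted and rejecting mouse kidney allografts, of the recipients' spleens and of naive spleen. The 5 genes were chosen by name as genes that cytokine signaling through STAT proteins switches on and that act back on it, with earlier results of these data known, and the rule itself uses no measured value. They are 5 of the 16243 genes listed in all 9 matrices of CD8+ T cells. Droplet scRNA-seq had been run on sorted CD45+ cells, with a unique molecular identifier (UMI) on each captured mRNA. Counts were taken over the 56585 of 72639 cells that held a UMI of Cd8a or Cd8b1, the 2 chains of CD8, and were summed within each of 32 libraries, which a tag in the cell barcodes tells apart. Accepted grafts were DBA/2J kidneys placed in B6 mice, with 3 libraries at 1 week, 5 at 3 weeks and 3 at 24 weeks, and as many libraries of the recipients' spleens. Rejecting grafts were B6 kidneys placed in DBA/2J mice, with 2 graft and 3 spleen libraries at 1 week, and naive spleen had 5 libraries. All mice were male and of wild-type genotype. The sample labels give C57BL/6J as the strain of every group, the rejecting one included, while the study's results describe B6 kidneys placed in DBA/2J recipients. Donor and recipient strain change together with the outcome, so strain and outcome cannot be told apart, and the CD45 gate does not separate donor from recipient leukocytes. The number of tags in the accepted groups equals the number of mice the study gives, but nothing ties a tag to a mouse. P-values of the comparisons between groups therefore measure the spread between libraries, which may be partly technical.

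Cytokines such as IL-2, IL-7, IL-15 and IFN-γ bind receptors whose paired Janus kinases phosphorylate STAT proteins, and the STATs move to the nucleus and switch on target genes. Among these targets are brakes on the same route: CIS, the product of Cish, and SOCS2 dampen STAT5 signaling and growth hormone signaling, SOCS1 blocks Janus kinases and restrains IFN-γ and IL-2 family signals, and SOCS3 binds gp130 and restrains IL-6. Pim1 encodes a serine/threonine kinase that supports growth and survival. Il2ra encodes CD25, the chain that gives the IL-2 receptor its high affinity, and is induced by antigen receptor signals and by STAT5.

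STAT dimers bind a short palindrome, TTCNNNGAA, and the promoters of the members were searched for it to show what the window around each start site holds. The windows ran from 250 bases before to 50 bases after the start site in RefSeq sequence of build GRCm38.p6, and both strands give the same matches because the pattern is its own reverse complement. Entries were found for 4 of the 5 members, Pim1 with 2 of them, and no entry was found for Socs2. Of 32851 promoters of this length, 2726 (8.30%) held at least 1 match and 150 (0.457%) held at least 2. The Cish window held 2 matches, 1 starting at the first base of the RefSeq transcript and 1 starting at base 12. Positions are counted from the start site of the entry used, and the GENCODE spans of Cish and Socs3 given after the sequences begin farther upstream. The Socs3 window held 1 match, which starts 154 bases before the start site. No match was found in the windows of Socs1, Pim1 or Il2ra, and the same palindrome with 4 bases between its ends, which 6.95% of promoters hold, was found in none of the windows. Both sequences that hold a match are given below 5′ to 3′, with the matches in capitals. The Cish stretch lies at chr9:107296409-107296678 on the plus strand and ends 20 bases past the start site, and the Socs3 stretch lies at chr11:117969367-117969616 on the minus strand and ends at the start site.
Cish promoter: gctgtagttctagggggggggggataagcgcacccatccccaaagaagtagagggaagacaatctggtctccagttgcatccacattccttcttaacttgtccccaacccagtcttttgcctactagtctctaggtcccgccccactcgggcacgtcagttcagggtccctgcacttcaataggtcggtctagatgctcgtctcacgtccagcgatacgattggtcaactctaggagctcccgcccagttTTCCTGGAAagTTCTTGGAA
Socs3 promoter: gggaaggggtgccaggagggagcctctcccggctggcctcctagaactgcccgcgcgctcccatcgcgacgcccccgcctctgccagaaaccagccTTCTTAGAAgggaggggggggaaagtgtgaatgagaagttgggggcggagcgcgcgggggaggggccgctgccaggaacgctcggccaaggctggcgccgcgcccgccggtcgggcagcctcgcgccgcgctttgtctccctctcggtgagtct
In GENCODE release M21 of the same build, the genes span 9:107296026-107302784 (Cish), 16:10782240-10785536 (Socs1), 10:95385362-95417180 (Socs2), 11:117966079-117970047 (Socs3), 17:29490753-29496112 (Pim1) and 2:11642807-11693193 (Il2ra).

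The libraries held 153266 to 22782080 UMIs in 56 to 7017 cells with a Cd8a or Cd8b1 UMI, and 1 rejecting spleen library had the 56 cells. These cells were 94.97% to 97.6% of the naive matrix and 96.3% to 97.0% of the 3-week graft matrix, but 41.9% to 51.8% of the accepted spleen matrices at 1 and 3 weeks, where other cells made up the rest. They were 100% of each rejecting spleen library but 76.6% and 78.1% of the rejecting grafts, so the cells of these matrices may have been chosen differently. The libraries labelled 24-week graft and 24-week spleen stood apart from their labels in kidney markers, while the letters of their barcode tags (K in graft and S in spleen libraries) follow the labels. Markers of kidney parenchyma (10 genes) summed to 0 to 0.474 CPM (counts scaled to 1000000 UMIs a library) in the libraries labelled 24-week graft, with 9 of 10 at 0, and to 4.39 to 5.56 CPM in those labelled 24-week spleen. They summed to 1.22 to 5.19 CPM in 1-week grafts, 7.73 to 12.3 CPM in 3-week grafts and 0 to 0.473 CPM in the other accepted spleens. The cells kept were also 46.2% to 49.2% of the matrix labelled 24-week graft and 93.4% to 95.3% of that labelled 24-week spleen. Each comparison that rests on these 6 libraries is given by label and apart from the others, and correlations across libraries are given with and without them.

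Cish was the member with the widest range of group means in CPM, with its highest values in the 3-week accepted grafts. The 5 graft libraries at 3 weeks held 174, 194, 197, 216 and 216 CPM, or 199 ± 17.4 (SD, n = 5). The 3 graft libraries at 1 week held 40.9, 46.8 and 48.3 CPM, or 45.3 ± 3.94 (SD, n = 3). No library of the one group reached into the range of the other. In the recipients' spleens Cish was at 8.46, 9.38 and 12.2 CPM at 1 week and at 5.59, 6.14, 6.81, 8.71 and 11.5 CPM at 3 weeks, ranges that overlapped. Naive spleen held 4.01 to 7.30 CPM, with a mean of 5.66 ± 1.44 (SD, n = 5). The rejecting grafts held 18.8 and 38.0 CPM, both under the lowest accepted graft of 1 or 3 weeks, and the rejecting spleens held 0, 0 and 5.04 CPM, which rest on 4 UMIs in all. The libraries labelled 24-week spleen held 92.2, 98.5 and 100.1 CPM and those labelled 24-week graft 2.79, 3.55 and 4.27 CPM, so by label the order of graft and spleen was the reverse of that at 1 and 3 weeks. From the highest mean down, Cish ran from the 3-week graft through the libraries labelled 24-week spleen, the 1-week graft and the rejecting graft to the spleens, and no neighbours among those 4 groups, nor the rejecting graft and the 1-week spleen, overlapped. The remaining neighbours in that order did overlap.

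**Figure D1:**
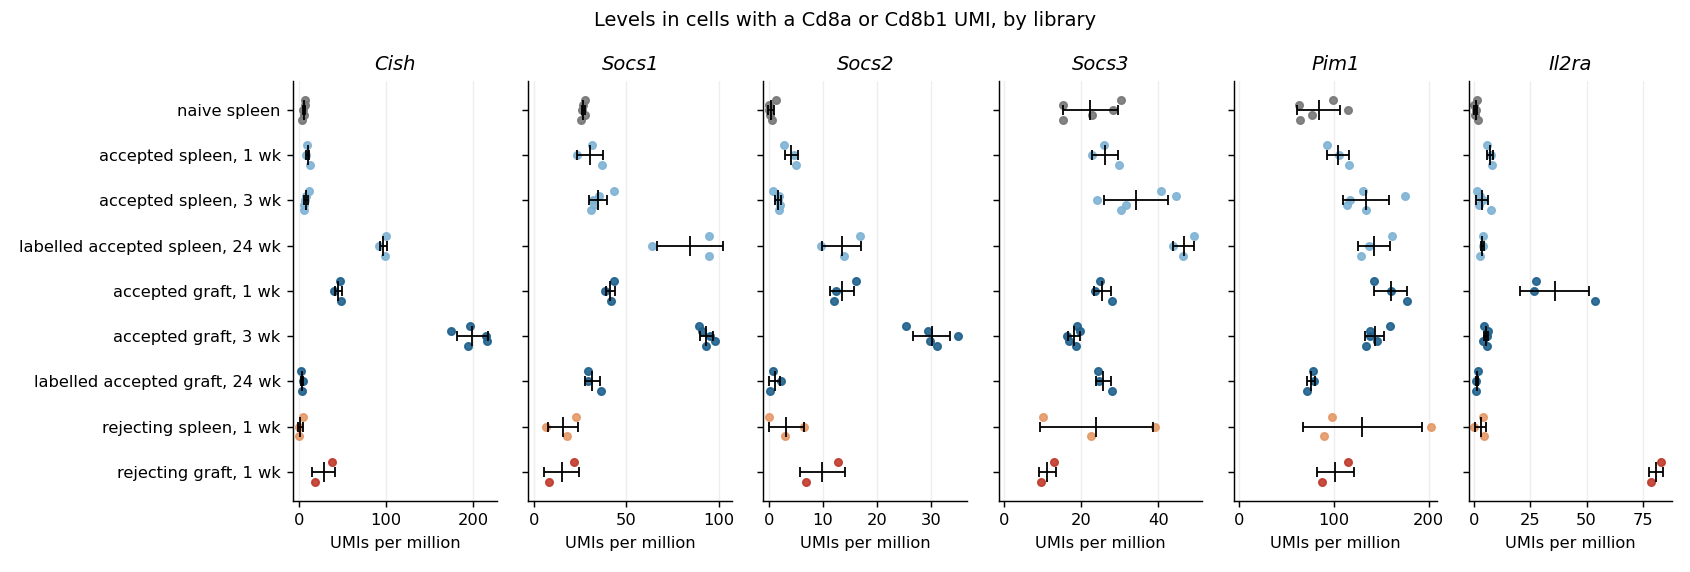
CPM of the 5 genes and of Il2ra in cells with a Cd8a or Cd8b1 UMI on linear horizontal axes, with the 9 groups on the vertical axis. Each point is 1 library, the tick is the group mean and the bar 1 SD to either side. Cish, Socs1 and Socs2 have their highest points in the 3-week accepted graft (Cish 174 to 216 CPM), while Socs3 and Pim1 do not.

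The share of cells with a Cish UMI rose as well. At a fixed depth this share follows largely from the mean level, so it is not a separate line of evidence. After each cell was thinned to 1000 UMIs, so that depth per cell was equal, 16.8% ± 1.23 of the cells in 3-week grafts held a Cish UMI (SD, n = 5), against 3.57% ± 0.361 in 1-week grafts (SD, n = 3). Without thinning the shares were 33.5% and 12.3%. Spleen of accepted recipients at 1 and 3 weeks had 0.765% and 0.854%, and naive spleen 0.594%. As a background, the share in B cells of the naive CD45+ matrix was 0.0703% (19 of 27018 cells, exact 95% interval 0.0423% to 0.110%, median depth 2745 UMIs), and in myeloid cells of the rejecting graft 1.44% (40 of 2774 cells, median depth 2827 UMIs). The shares in accepted and naive spleen lie above that of naive B cells and below that of these myeloid cells. The myeloid cells come from another tissue and model. With backgrounds this far apart, expression in spleen is not read from the shares. Rejecting grafts had 2.56%. Of the 726 cells of rejecting spleen 2 held a Cish UMI without thinning and 0 after it, which allows a share of up to 0.507% of cells with such a UMI at this depth by the exact interval. Intervals of this kind cover counting error only. Thinning left out 0 to 71 shallower cells per group.

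Socs1 and Socs2 also had their highest means in the 3-week grafts. Socs1 was at 89.2, 90.6, 93.0, 95.0 and 97.9 CPM in 3-week grafts and at 38.7, 41.8 and 43.2 CPM in 1-week grafts, and the 2 groups did not overlap. The libraries labelled 24-week spleen, at 63.6, 94.6 and 94.6 CPM, overlapped with the 3-week grafts for Socs1. The accepted spleens at 1 and 3 weeks held 23.2 to 43.1 CPM of Socs1 and naive spleen 25.7 to 27.7 CPM. Rejecting grafts held 8.44 and 21.6 CPM, under every accepted library. Socs2 was at 25.4, 29.4, 29.9, 31.1 and 35.0 CPM in 3-week grafts and at 12.0, 12.4 and 16.1 CPM in 1-week grafts. In the spleens labelled 24 weeks it was at 9.66, 13.9 and 16.9 CPM, and in the other spleens it was lower, at 2.76, 4.67 and 4.90 CPM at 1 week, 0.679 to 2.03 CPM at 3 weeks and 0 to 1.33 CPM in naive spleen. Rejecting grafts held 6.90 and 12.8 CPM of Socs2.

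Socs3 and Pim1 followed another order. Socs3 was at 16.4, 16.8, 18.7, 19.0 and 19.8 CPM in 3-week grafts, under the 23.7, 24.8 and 28.1 CPM of 1-week grafts. In accepted spleens it was at 22.9 to 29.8 CPM at 1 week and 24.0 to 44.6 CPM at 3 weeks, and the rejecting grafts, at 9.59 and 12.8 CPM, had the lowest values of any graft. Pim1 was at 143, 160 and 177 CPM in 1-week grafts and at 134 to 160 CPM in 3-week grafts, and its groups overlapped with their neighbours throughout the order of the 9 means, from 160 ± 17.2 CPM in the 1-week graft down to 76.1 CPM in the libraries labelled 24-week graft. Across the 32 libraries Cish had a Spearman's rho of 0.81 with Socs2, 0.77 with Socs1, 0.60 with Pim1 and −0.07 with Socs3. Over the 26 libraries that remain without those labelled 24 weeks, rho was 0.80, 0.77, 0.51 and −0.24. These libraries share groups and scaling, so the correlations are a description only.

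Changes within the graft from 1 to 3 weeks were tested by edgeR's quasi-likelihood test over all 11638 genes that passed its filter, with Benjamini-Hochberg adjustment. Cish rose by 2.13 ± 0.0988 on the log2 scale (SE, adjusted p = 4.06e-10), Socs1 by 1.18 ± 0.0791 (adjusted p = 8.21e-09) and Socs2 by 1.17 ± 0.128 (adjusted p = 8.97e-07). Socs3 fell by 0.50 ± 0.102 (adjusted p = 4.06e-04). Pim1 was 0.89 times its 1-week level, with an adjusted p of 0.107. Thus 3 members rose and 1 fell, in a comparison where 53.6% of all genes tested were called higher and 21.2% lower. The median of all genes stood at 0.41 on this scale, so that Cish lay well above it, Socs1 and Socs2 above it, and Pim1 and Socs3 below it. With TMM factors, which set that median near 0, the share of calls that were higher went from 71.6% to 49.7%, Cish, Socs1 and Socs2 were still called higher (1.75, 0.79 and 0.79), and Pim1 was called lower (−0.55, adjusted p = 1.39e-04). Pim1 was also called lower by DESeq2 and without replicate 1 of the 1-week grafts (−0.24) or replicate 1 of the 3-week grafts (−0.20).

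**Figure D2:**
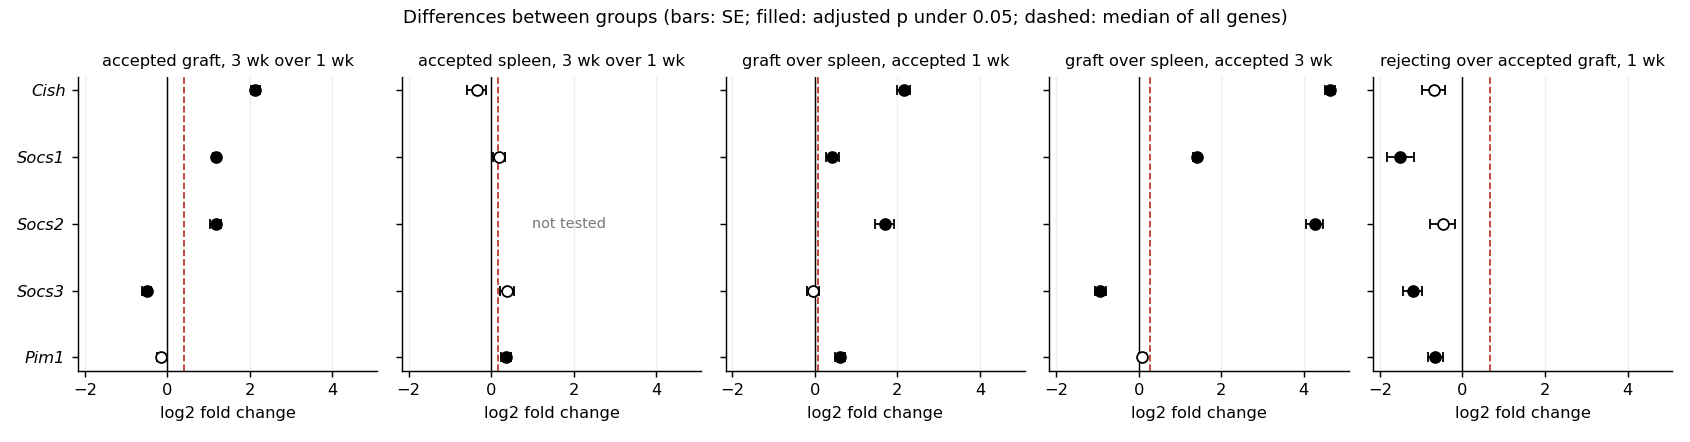
Log2 fold changes of the 5 genes with bars of 1 SE in 5 comparisons, all panels on 1 horizontal scale, filled points for an adjusted p under 0.05. The black line marks no change and the dashed line the median of all genes tested, and Cish is the member farthest to the right in the comparison of 3-week with 1-week graft (2.13) and of 3-week graft with spleen (4.63).

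The share of dividing cells was lower at 3 weeks, with no overlap between the groups. Cells with a UMI of Mki67, Top2a, Birc5 or Pclaf were 35.9%, 36.5% and 59.9% of the 1-week grafts and 11.6% to 16.5% of the 3-week grafts. Within 1-week grafts Cish was higher in the dividing than in the other cells of all 3 libraries (53.6 against 38.9, 49.9 against 30.9, and 49.2 against 46.0 CPM), and so was Socs2 (19.7 against 11.9, 18.0 against 6.14, and 14.0 against 6.55 CPM). Pim1 was higher in the dividing cells of all 3 as well (144 against 141, 166 against 154, and 183 against 161 CPM). Socs3 was lower in all 3 (21.4 against 28.7, 21.2 against 26.5, and 26.4 against 32.9 CPM), and Socs1 went both ways. Within 3-week grafts the 2 fractions were close for Cish, at 171 to 209 and 174 to 219 CPM. Leaving out the dividing cells moved the log2 difference between 3-week and 1-week grafts to 1.89 for Socs2. The summed level of 10 immediate early genes, which also respond to tissue dissociation, was 2274 to 2548 CPM in 3-week grafts and 1489 to 1876 CPM in 1-week grafts, and 5 of the 10 were called higher and 3 lower. Markers of other cell types moved as well, without overlap between the groups. The 3 NK cell markers summed to 26.1 to 50.8 CPM in 3-week against 12.9 to 15.7 CPM in 1-week grafts, with 2 called higher, and Cd79a was at 2.73 to 9.62 against 0.306 to 1.96 CPM. The 3 regulatory T cell markers summed to 218 to 258 against 336 to 359 CPM, with 2 called lower, and Cd4 was called lower at 2.64 to 5.77 against 8.71 to 18.6 CPM. The part of these in the result was not tested.

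The receptors, kinases and STATs upstream of the members were read from lists set by name. Calls within the lists, here and below, rest on plain library totals and were not repeated with TMM factors. Of 18 cytokine receptor genes, 17 were tested between 3-week and 1-week grafts and 12 were called higher and 3 lower, with a median of 1.00 beside 0.41 for all genes, of which 53.6% were called higher. Il15ra, the IL-15 receptor's own chain, rose by 1.73, and Il2rb, the chain that IL-2 and IL-15 share, by 1.19, from 299 ± 15.3 to 683 ± 69.9 CPM. Il2ra fell by 2.83 on the same scale and Il6ra, the IL-6 receptor, by 1.48. Of 11 Janus kinase and STAT genes 10 were called higher, among them Stat2 at 1.24 and Stat6 at 1.00, and 1 lower, Stat5a, which fell by 0.37. Of 16 other feedback and family genes 14 were called higher and none lower by this test. Pim2, a relative of Pim1, stood at 1.64 and Usp18, which restrains the type I interferon receptor, at 1.61. Of 10 other genes known to respond to STAT5, 4 were called higher and 2 lower. The survival gene Bcl2 rose by 2.82 and the cyclin gene Ccnd2 by 1.46, while the cytokine gene Lta fell by 1.72 and Myc by 0.67. Of 11 cytokine genes 4 passed the filter, and Il10 fell by 2.33 as the only one called.

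Graft and spleen of accepted recipients were compared at each time. At 1 week Cish was higher in graft than in spleen by 2.15 ± 0.155 on the log2 scale (adjusted p = 6.77e-07), Socs2 by 1.69 ± 0.229 (adjusted p = 8.80e-05) and Pim1 by 0.61 ± 0.117 (adjusted p = 0.00104). Socs1 was called higher by 0.43 ± 0.151 (adjusted p = 0.0338), a call that was lost with TMM factors (0.31, adjusted p = 0.0886), with DESeq2, and without replicate 1 or 2 of the spleens (0.44 and 0.27) or replicate 1 or 3 of the grafts (0.39 and 0.41). Socs3 was 0.97 times as high in graft as in spleen (adjusted p = 0.808). The 4 members called higher stood in a comparison where 30.0% of genes were called higher and 19.4% lower. Over every cell of the matrices, other cells included, the log2 difference was 1.05 for Cish and −0.10 for Socs2.

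Markers of other cell types moved with the tissue in both comparisons. Cd79a of B cells was at 172 to 376 CPM in spleen and 0.306 to 1.96 CPM in graft at 1 week and at 31.9 to 112 against 2.73 to 9.62 CPM at 3 weeks. The summed level of 6 myeloid markers was 15.8 to 22.4 CPM in spleen and 46.1 to 105 CPM in graft at 1 week and 3.39 to 12.3 against 66.6 to 171 CPM at 3 weeks, with 5 called higher in graft each time. Myeloid cells of the rejecting CD45+ matrix held 10.6 CPM of Cish, 44.4 of Socs1, 2.01 of Socs2, 71.8 of Socs3 and 267 of Pim1. The part of these cells in the differences was not tested.

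At 3 weeks the differences between the tissues were larger for Cish, Socs1 and Socs2. Cish was higher in graft by 4.63 ± 0.127 (adjusted p = 8.42e-17), Socs2 by 4.27 ± 0.206 (adjusted p = 6.12e-13) and Socs1 by 1.41 ± 0.0850 (adjusted p = 1.80e-11), and Socs3 fell by 0.93 ± 0.133 (adjusted p = 4.33e-06). Pim1 was at 134 to 160 CPM in graft and 114 to 175 CPM in spleen and was not called (0.09, adjusted p = 0.403; −0.18 with TMM factors or DESeq2; 0.21 and called without replicate 2 of the spleens). In this comparison 48.7% of genes were called higher and 16.8% lower, and TMM factors took the share of higher calls from 74.4% to 52.0%. Over every cell of the matrices the difference was 3.76 for Cish and 2.06 for Socs2. Immediate early genes were higher in graft as well, with 8 of 10 called, at 2274 to 2548 against 1261 to 1640 CPM. The kidneys had been digested with collagenase and the spleens had not, and the part of this in the result was not tested.

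The difference between graft and spleen changed from 1 to 3 weeks for each member when that change itself was tested. It grew by 2.49 ± 0.222 on the log2 scale for Cish (adjusted p = 2.29e-08), by 2.58 ± 0.359 for Socs2 (adjusted p = 1.07e-05) and by 0.99 ± 0.163 for Socs1 (adjusted p = 7.25e-05). It fell by 0.89 ± 0.200 for Socs3 (adjusted p = 0.00161) and by 0.52 ± 0.157 for Pim1 (adjusted p = 0.0131). Of all 11895 genes tested 24.3% were called higher and 9.48% lower, with a median of 0.23. Socs3 was no longer called among cells of 2000 to 4000 UMIs (−0.84, adjusted p = 0.0619), nor Pim1 in 1 fit over all 9 groups (−0.52, adjusted p = 0.0589). In the spleens alone, between 1 and 3 weeks, Pim1 was called higher by 0.36 ± 0.118 (adjusted p = 0.0165), where 31.9% of genes were called higher and 17.4% lower. That call was lost with TMM factors (0.22), with DESeq2 (0.22), and without replicate 1 of the 1-week (0.28) or replicate 2 of the 3-week spleens (0.24). Cish (−0.35, adjusted p = 0.210), Socs1 (0.19, adjusted p = 0.301) and Socs3 (0.39, adjusted p = 0.0524) were not called there, and Socs3 was called without replicate 3 of the 1-week (0.50) or replicate 3 of the 3-week spleens (0.49). Socs2 did not pass the filter on low counts.

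In the libraries labelled 24 weeks Cish, Socs1 and Socs2 moved in opposite directions in graft and spleen, and Socs3 and Pim1 did not. By label, Cish was lower in 24-week than in 3-week grafts by a log2 difference of −5.80 ± 0.149 (adjusted p = 3.07e-14), and it was higher in 24-week than in 3-week spleens by 3.59 ± 0.145 (adjusted p = 7.96e-16). Socs2 went from 30.2 ± 3.44 CPM to 0.237, 0.698 and 2.14 CPM in the graft libraries and from 0.679 to 2.03 CPM to 9.66, 13.9 and 16.9 CPM in the spleen libraries. Its log2 difference of −4.94 in the graft was −6.10 without replicate 2 and −4.35 without replicate 3 of the libraries labelled 24-week graft. Socs1 was lower by −1.54 in the graft and higher by 1.27 in the spleen. Socs3 was called higher in both (0.51 and 0.43), and Pim1 was called lower in the graft (−0.92) and not called in the spleen (0.08). In the graft 14.2% of genes were called higher and 56.9% lower, and in the spleen 31.1% and 27.4%. Between the 2 tissues at 24 weeks all 5 members were called lower in the libraries labelled graft (Cish −4.75, Socs2 −3.78, Socs1 −1.41, Pim1 −0.91 and Socs3 −0.86), where 39.1% of genes were called lower and 14.7% higher. As the kidney markers go against these labels, the directions are those of the labels only. Cd79a was at 27.0 to 91.3 CPM in the libraries labelled 24-week graft and 6.80 to 16.7 CPM in those labelled 24-week spleen. The study's other measurements of late grafts, which are not in these matrices, were not used here. The comparisons at 1 or 3 weeks do not use these libraries, other than in the fit over all 9 groups and in the adjustment of the Il2ra share tests over 11 comparisons.

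Rejecting and accepted grafts were compared at 1 week, 2 libraries against 3. Socs1 was lower in the rejecting grafts by a log2 difference of −1.50 ± 0.328 (adjusted p = 0.00434), Socs3 by −1.20 ± 0.228 (adjusted p = 0.00209) and Pim1 by −0.66 ± 0.189 (adjusted p = 0.0161). Cish (−0.70 ± 0.277, adjusted p = 0.0571) and Socs2 (−0.48 ± 0.308, adjusted p = 0.210) did not pass the threshold. In this comparison 10.4% of genes were called lower and 47.8% higher, and the median of all genes was 0.68. With TMM factors all 5 members were called lower, Cish at −1.37, Socs1 at −2.17, Socs2 at −1.15, Socs3 at −1.87 and Pim1 at −1.33, and the share of higher calls went from 82.1% to 51.5%. The CD45+ matrix of the rejecting grafts held 2327 cells with a Cd8a or Cd8b1 UMI, against 1687 in the CD8 matrix. Pooled, they held 24.5 CPM of Socs3 and 150 CPM of Pim1, within the ranges of the CD8 matrix of accepted 1-week grafts. Cish (24.8 CPM), Socs1 (18.1 CPM) and Socs2 (9.37 CPM) lay under those ranges. The part of this choice of cells in the result was not tested. The libraries of the rejecting grafts differed among themselves, at 38.0 against 18.8 CPM for Cish and 21.6 against 8.44 CPM for Socs1, and dividing cells made up 28.3% and 75.8% of them. Leaving out either rejecting graft leaves 1 library on that side, which is then assumed to vary like the accepted grafts, so these calls carry that assumption. Without replicate 2 of the rejecting grafts Cish was called lower (−1.27), Socs2 was called lower (−0.96) and Socs1 stood at −2.29, while among cells of 2000 to 4000 UMIs Socs2 turned to 0.45 (adjusted p = 0.399). Without replicate 3 of the rejecting grafts (−0.47) or replicate 2 or 3 of the accepted grafts (−0.65 and −0.58) Pim1 was no longer called.

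The receptor, kinase and STAT genes upstream of the members were read beside all genes tested, of which 47.8% were called higher. Il2ra was at 78.6 and 83.1 CPM in rejecting and 26.4, 27.4 and 53.6 CPM in accepted grafts and was called higher (1.17, adjusted p = 0.0108). Of the 17 receptor genes tested 6 were called higher and none lower, with Il12rb2, the inducible chain of the IL-12 receptor, at 3.26 and Il15ra at 1.71. Of 11 kinases and STATs 9 were called higher, among them Stat5b at 2.17, from 34.3 ± 3.30 CPM in accepted grafts to 128 and 181 CPM in rejecting grafts. Of 16 other feedback and family genes 11 were called higher, with Pias2 at 2.53 and Usp18 at 2.46, and Pim3 was lower at −2.18. Of the genes known to respond to STAT5, 4 were called higher, with the cyclin gene Ccnd3 at 2.04 and Bcl2 at 1.52, and Lta was lower at −1.86. The medians of these lists were 0.38 for receptors, 1.02 for kinases and STATs, 0.98 for feedback genes and 0.29 for genes known to respond to STAT5, beside 0.68 for all genes, so that 2 of the 4 lay below and 2 above the median of all genes. Immediate early genes summed to 340 and 790 CPM in rejecting against 1489 to 1876 CPM in accepted grafts, and 7 of 10 were called lower and 0 higher by this test. The 6 myeloid markers, with Itgam at 0 in rejecting grafts, summed to 142 and 172 CPM there against 46.1 to 105 CPM in accepted grafts. Cd4 was at 0 in both rejecting libraries against 8.71 to 18.6 CPM. The 3 regulatory T cell markers summed to 405 and 552 against 336 to 359 CPM. The 3 NK cell markers, with Klrb1c at 0 in rejecting grafts, summed to 19.9 and 27.2 against 12.9 to 15.7 CPM. The 5 CD8 T cell markers summed to 4658 and 5869 against 3483 to 4445 CPM. The 4 hemoglobin genes of red cells, which overlapped, reached 252 CPM in 1 rejecting library against at most 41.7 CPM. The part of these in the result was not tested.

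Within the rejecting recipients Cish was the member called between graft and spleen, at a log2 difference of 3.47 ± 0.737 (adjusted p = 0.00468), where 11.4% of genes were called higher and 5.79% lower. The spleen side rests on 4 UMIs, all in replicate 1, and the difference was 2.76 without replicate 3 of the spleens (adjusted p = 0.0459). Among cells of 2000 to 4000 UMIs no member was called, and in 1 fit over all 9 groups 2 were. Without replicate 1 of the spleens no Cish UMI remained on that side, and no fold is read there. Between these tissues Cd79a was at 0.767 and 1.54 CPM in graft against 26.1 to 116 CPM in spleen, the 6 myeloid markers (Itgam at 0 in graft, C1qa at 0 in spleen) summed to 142 and 172 against 7.55 to 97.9 CPM, and the 5 markers of dividing cells to 1008 and 3426 against 463 to 802 CPM, with 4 called higher. None of these ranges overlapped, and their part in the result was not tested. Socs1 was at 8.44 and 21.6 CPM in graft and 6.53, 18.2 and 22.7 CPM in spleen, Socs3 at 9.59 and 12.8 against 10.1, 22.7 and 39.2 CPM, and Pim1 at 87.8 and 115 against 89.2, 98.2 and 202 CPM, and these groups overlapped for Socs1, Socs3 and Pim1. Socs2 was not tested. Whether the difference between graft and spleen differed between rejecting and accepted recipients was tested for all 5 members, and none was called by edgeR (unadjusted p from 0.0301 for Pim1 to 0.508 for Socs2, adjusted p from 0.344 to 0.835), where 0.302% of genes were called higher and 0.243% lower.

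The spleens were also compared with each other at 1 week. Cish was lower in rejecting than in accepted spleens at a log2 difference of −2.02 ± 0.669 (adjusted p = 0.0221), where 11.3% of genes were called lower and 39.9% higher. The call was lost without replicate 3 of the rejecting spleens (−1.27, adjusted p = 0.143) and without cells that held a Cd4 UMI (−1.76, adjusted p = 0.0684). Beside it, Cd79a was at 26.1 to 116 CPM in rejecting and 172 to 376 CPM in accepted spleens, and the immediate early genes summed to 552 to 782 against 1215 to 2540 CPM, with 7 of the 9 tested called lower. The kinases and STATs summed to 1422 to 2173 against 920 to 946 CPM, with 8 of 11 called higher. None of these ranges overlapped, and their part in the result was not tested. Against naive spleen, the 1-week accepted spleen had more Cish, by 0.84 ± 0.207 (adjusted p = 0.00215), and more Socs2, by 3.17 ± 0.525 (adjusted p = 5.92e-05), where 21.1% of genes were called higher and 36.5% lower. Among cells of 2000 to 4000 UMIs Cish was no longer called (0.38, adjusted p = 0.389), and Socs2 did not pass the filter there or without cells that held a Cd4 UMI. Between these spleens Cd79a was at 172 to 376 against 6.00 to 9.91 CPM, the 5 markers of dividing cells summed to 257 to 655 against 16.9 to 31.0 CPM, and the immediate early genes to 1215 to 2540 against 599 to 806 CPM, and their part in the result was not tested. The Socs2 difference was 4.29 without replicate 1 of the naive spleens, which held 1.33 CPM, the highest value of that group. Socs1 and Pim1 were called in addition with TMM factors (0.36 and 0.47), which took the share of higher calls from 36.6% to 51.9%, and Socs3 was at 22.9 to 29.8 CPM against 15.3 to 30.3 CPM. Socs1 was also called without replicate 2 of the accepted spleens (0.35), and Pim1 without replicate 1 (0.39) or replicate 3 (0.45) of the naive spleens, but among cells of 2000 to 4000 UMIs Pim1 stood at −0.056 (adjusted p = 0.808).

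Cells that held an Il2ra UMI were then set against the other cells of the same library. Such cells were 233, 245 and 847 of the cells in 1-week grafts, 37 to 58 per library in 3-week grafts, 99 and 123 in rejecting grafts and 22, 27 and 39 in 1-week accepted spleens. The other groups held 5 to 39 such cells in all and were not tested. Both fractions were summed per library and fitted with a term for each library. The spread used in this fit was shared over genes. Its p-values therefore do not measure a gene's own spread between libraries, and their size is not read as such. In 1-week grafts Cish was at 66.1, 72.5 and 72.8 CPM in cells with and at 36.7, 43.0 and 43.7 CPM in cells without an Il2ra UMI, and the 2 ranges did not overlap. The log2 difference was 0.78 ± 0.107 (adjusted p = 1.24e-10). Socs2 was at 24.2, 29.3 and 30.3 CPM with and 9.40, 9.54 and 14.4 CPM without (1.36 ± 0.161, adjusted p = 3.01e-14), and Pim1 at 178, 224 and 242 CPM with and 139, 150 and 163 CPM without (0.52 ± 0.0835, adjusted p = 8.87e-08). Each of these 3 members was higher in 3 of 3 libraries, and 8.18% of genes were called higher and 1.67% lower. Socs1 was not called (0.09, adjusted p = 0.754), although it too was higher in 3 of 3 libraries, and Socs3 was not called.

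**Figure D3:**
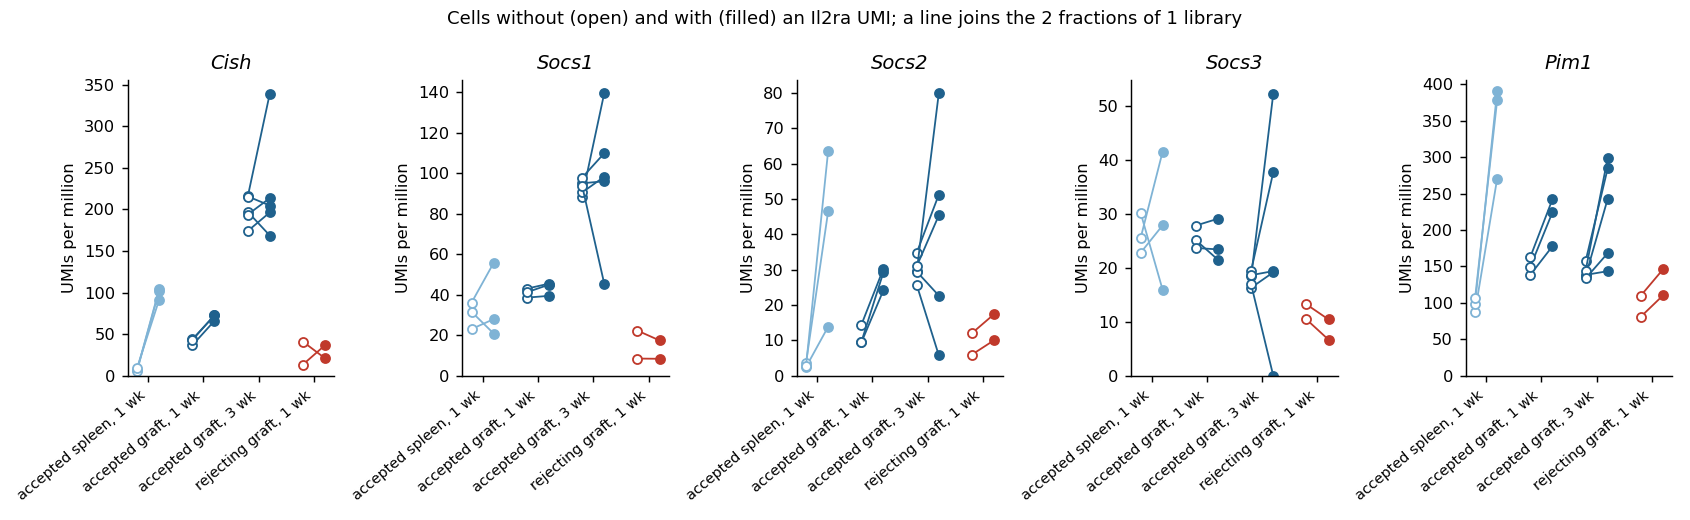
CPM of the 5 genes in cells without (open) and with (filled) an Il2ra UMI, a line joining the 2 fractions of each library, in the 4 groups with enough such cells, on linear axes from 0. In the 1-week accepted spleen Cish goes from 6.16 to 9.44 CPM without to 91.5 to 104 CPM with an Il2ra UMI, and in the 3-week graft its lines run in both directions.

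For Cish, Socs2 and Pim1 the contrast was largest in the spleen, and its difference from the contrast in grafts was not tested. In 1-week accepted spleens Cish was at 91.5, 102 and 104 CPM in cells with an Il2ra UMI and at 6.16, 6.80 and 9.44 CPM in the others, a log2 difference of 3.63 ± 0.311 (adjusted p = 4.45e-29). Socs2 was at 13.9, 46.5 and 63.7 CPM against 2.46, 2.82 and 3.65 CPM (3.93 ± 0.485, adjusted p = 4.66e-14), and its lowest value rests on 2 UMIs. Without replicate 3, which held 16 of the 23 Socs2 UMIs of that fraction, the difference was 3.22. Pim1 was at 271, 378 and 391 CPM against 87.8, 98.5 and 106 CPM (1.82 ± 0.149, adjusted p = 7.86e-32). In this contrast 9.50% of genes were called higher and 1.43% lower. The share of higher calls went from 86.9% to 41.4% with TMM factors, under which the 3 members were still called higher (3.18, 3.49 and 1.36).

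The same cells carried more mRNA of regulatory T cell markers. Foxp3, the transcription factor of regulatory T cells, was higher in cells with an Il2ra UMI by 4.64 in the 1-week spleen and by 2.28 in the 1-week graft, Cd4 by 2.56 and 1.44, and all 3 genes of the list (Foxp3, Ctla4, Ikzf2) were called higher in both. Without cells that held a Foxp3 UMI, a setting chosen after the data were seen, the difference of Cish was 3.29 in the spleen (adjusted p = 6.28e-09) and 0.74 in the graft (adjusted p = 4.38e-08), that of Socs2 3.83 and 1.09, and that of Pim1 1.76 and 0.41, all called. Without cells that held a Cd4 UMI the difference of Cish was 3.36 and 0.75. A cell can express Foxp3 or Cd4 without a captured UMI, so regulatory T cells may remain under both settings. Markers of dividing cells (5 genes, Mki67 and Top2a among them) were all called higher in both tissues. Without dividing cells Cish stayed called in the 1-week graft (0.81, adjusted p = 0.0127), while Socs2 (0.98, adjusted p = 0.428) and Pim1 (0.39, adjusted p = 0.139) did not. Cells with an Il2ra UMI were also deeper, with medians of 4338 to 6570 UMIs against 1999.5 to 3585.5 in 1-week grafts. The medians were 3274 to 6111 against 2145 to 3643 in 1-week spleens, and closer in 3-week grafts, at 2217 to 3309 against 1966 to 2985. Among cells of 2000 to 4000 UMIs, the difference of Cish was 0.83 in the 1-week graft (adjusted p = 0.0388) and 3.15 in the spleen (adjusted p = 0.143), and that of Pim1 was called in both (0.56 and 2.03). The spleen values of this setting rest on 5, 12 and 6 cells with an Il2ra UMI, and those without cells with a Foxp3 UMI on 12, 19 and 23. Without dividing cells 13, 20 and 11 such cells remained in the spleens.

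In 3-week grafts the level of Cish did not separate the 2 fractions. It was at 169, 196, 205, 214 and 339 CPM in cells with an Il2ra UMI and at 174 to 216 CPM in cells without, higher with the UMI in 3 of 5 libraries, and 26 to 34 Cish UMIs per library stand behind the first. Pim1 was higher in 5 of 5 libraries, at 144, 168, 243, 285 and 299 CPM with and 134 to 158 CPM without (0.67 ± 0.132, adjusted p = 5.23e-04), where 0.122% of genes were called higher and 0.0350% lower. Without replicate 1 the call was lost (0.60, adjusted p = 0.0875). In rejecting grafts no member was called, where 0.910% of genes were called higher and 0.394% lower. Cish was at 20.9 and 36.8 CPM with and 40.9 and 13.4 CPM without an Il2ra UMI, in opposite order in the 2 libraries, and Pim1 at 146 and 110 CPM with and 110 and 81.1 CPM without. The change of the Cish contrast from 1-week to 3-week grafts was called by the test of that change (−0.65 ± 0.165, adjusted p = 0.0357), where 0.140% of genes were called higher and 0.0875% lower. It was not called with TMM factors (−0.64, adjusted p = 0.0673), nor without any 1 of 7 of the 8 libraries of these groups (−0.56 to −0.67, adjusted p = 0.0583 to 0.244). The Socs2 contrast was 0.33 in 3-week grafts and not called. Its change from 1-week grafts was larger than that of Cish but did not pass the threshold (−1.025 ± 0.318, adjusted p = 0.157). Between rejecting and accepted 1-week grafts the contrast was not called different for any member by edgeR (unadjusted p from 0.188 to 0.652), where 0.0875% of genes were called higher and 0.0262% lower.

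Among the grafts of 1 and 3 weeks, the share of cells with an Il2ra UMI ran in the reverse order of the Cish means. The relation of the share to Cish over all groups was not tested. After thinning to 1000 UMIs the share was 2.61% ± 1.29 in 1-week grafts (SD, n = 3) and 0.475% ± 0.136 in 3-week grafts (SD, n = 5), and 5.11% and 6.25% in rejecting grafts. Without thinning these were 8.86% and 1.14%, and 13.5% in the mean of the rejecting grafts. As a background, naive B cells had 0.170% (46 of 27018 cells, median depth 2745 UMIs) and myeloid cells of the rejecting graft 0.541% (15 of 2774 cells, median depth 2827 UMIs). The shares in spleen were 0.321% at 1 week and 0.361% at 3 weeks, and the 0.0985% of naive spleen lies below that of naive B cells and is read as background. The 3-week graft and the accepted spleens lie below the myeloid share. The shares of the libraries labelled 24 weeks were 0.300% in spleen and 0.0992% in graft. The exact two-sided permutation test over libraries gave 0.0357 for 3-week against 1-week grafts, the smallest value that 5 against 3 libraries allow, and 0.196 after adjustment over the 11 comparisons. No comparison passed that adjustment, and with 3 against 3 libraries the smallest p is 0.100 and with 2 against 3 it is 0.200.

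**Figure D4:**
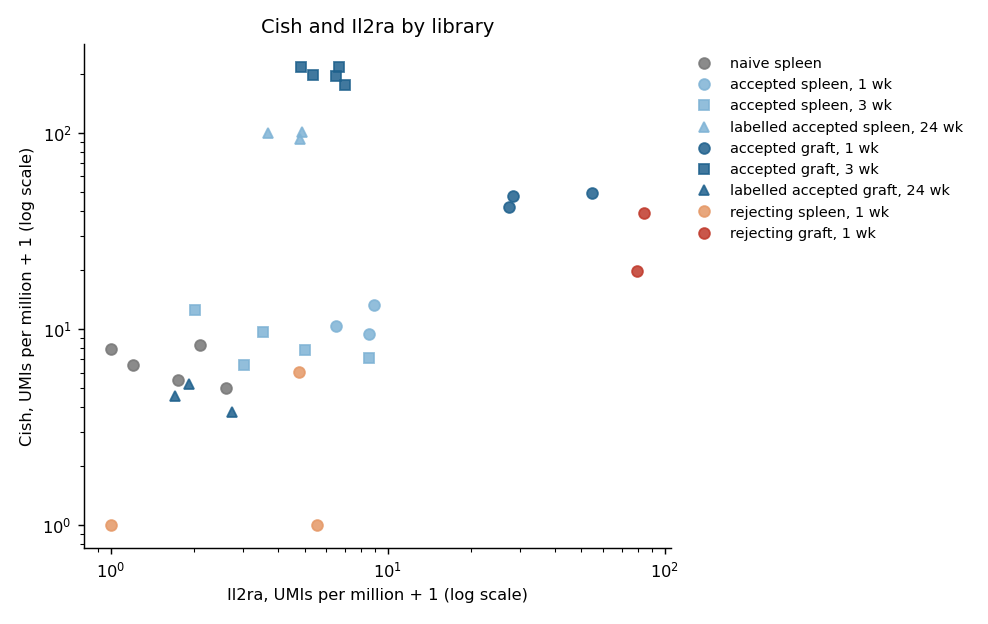
Cish against Il2ra, both as CPM + 1 on log axes, 1 point per library, with colors for tissue and outcome and marker shapes for time. The 3-week accepted grafts sit at 174 to 216 CPM of Cish and 3.86 to 6.02 CPM of Il2ra, and the rejecting grafts at 18.8 and 38.0 CPM of Cish and 78.6 and 83.1 CPM of Il2ra.

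The genes whose levels ran most like each member across the 32 libraries were taken by Spearman's rho over the 5387 genes whose mean reached 20 CPM. For Cish these were Dok2 (0.96), an adaptor that restrains signaling from tyrosine kinases, Sh2d2a (0.92), the T cell adaptor TSAd, and Myo6 (0.91), an unconventional myosin. For Socs2 they were Prr13 (0.97), Ctsw (0.96), a protease of cytotoxic lymphocytes, and Cxcr3 (0.94), a chemokine receptor of effector T cells. For Socs1 they were Prdx6 (0.91), Pnrc1 (0.90) and Dusp2 (0.90), a phosphatase of MAP kinases. The highest values for Socs3 were lower, with Frat2 at 0.63, Snhg3 at 0.63 and Snhg6 at 0.60, and for Pim1 Ubl3 stood at 0.79 with Ifngr1 and Mlf2 at 0.78. Without the libraries labelled 24 weeks (26 remain), a choice made after the data were seen, Dok2 (0.94), Prdx6 (0.91) and Prr13 (0.97) were still among the 3 leading genes of Cish, Socs1 and Socs2. Sh2d2a (0.88) and Myo6 (0.90) then ranked 17 and 9 for Cish, with Ier5l (0.95) at rank 1 and Nkg7 (0.93) at rank 3. Snhg3 led for Socs3 at 0.75, where Frat2 fell to rank 25 and Snhg6 to rank 83, and Ubl3 was at rank 3 for Pim1 with 0.77. The libraries share groups, depth and scaling, so these values describe the ranking and carry no test.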

How the data were processed

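Reads were processed by the authors with Cell Ranger against mm10, per the submitters' processing notes (the version is not given in the sources used here). Cells were then filtered on depth, gene number and mitochondrial share, CD8+ T cells were picked out, and raw UMI counts without normalization were deposited. Cells with a UMI of Cd8a or Cd8b1 were kept, and counts were summed per library tag. CPM are counts over the library total. Tests were edgeR 4.0.16 (R 4.3.3) quasi-likelihood tests on the deposited counts with plain library totals, filterByExpr and Benjamini-Hochberg adjustment over all genes, at a threshold of 0.05. DESeq2 1.42.0, TMM factors, other choices of cells and leaving out each library served as alternatives. The scripts were tested on data simulated with known changes. Between 3-week and 1-week grafts 57 of 67 genes changed 2-fold and 46 of 64 changed 1.5-fold were recovered. Between rejecting and accepted grafts these were 21 of 65 and 0 of 61, and between rejecting graft and spleen 9 of 63 and 1 of 62. Changes of this size in the rejecting comparisons can therefore go uncalled. In these 3 simulations 12 of 11423, 3 of 11541 and 1 of 7774 genes were called falsely. Each simulation changed only a small part of the genes, fewer than the real comparison called, so the share recovered in the real data can differ. Cells with and without an Il2ra UMI were fitted with a term per library, in groups with 2 or more libraries of at least 20 such cells before any alternative choice of cells (some alternatives leave fewer), without Il2ra, Cd8a and Cd8b1. The 5 genes and all lists were chosen with earlier results of these data known. Genes named beyond the members were Il2ra, the 3 most like each member, and the highest and lowest called of each list, with Il2rb and Stat5b added after their values were seen.

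Tags of graft and spleen that end in the same number deviated together from their group means at 1 week (r = 0.114 to 0.285) and at 3 weeks (r = 0.111 to 0.468), and at 24 weeks less so (0.00338 to 0.228). Replicates 2 and 5 of the 3-week grafts, and replicate 1 of those labelled 24 weeks, ran closer to a spleen library of another number. All the other graft libraries, those at 1 week included, ran closest to the spleen library of the same number. Pairing by number is therefore not settled by this check of the data, and no label states what the number marks. No label gives a sequencing batch. Doublets were not called, and no filter on doublets is stated. Libraries shared at most 21 cell barcodes (0.411% of the smaller). The CD45+ matrices of rejecting graft and naive spleen served as a background and for pooled values of their cells with a Cd8a or Cd8b1 UMI. They hold all 2184 and 4681 cells of the matching CD8 matrices with equal member counts.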

Additional observations from a re-analysis of the deposited data

Results flagged for a closer look

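The difference between graft and spleen of accepted recipients changed from 1 to 3 weeks for each member, by a test of that change: 2.49 for Cish (adjusted p = 2.29e-08), 0.99 for Socs1 (adjusted p = 7.25e-05), 2.58 for Socs2 (adjusted p = 1.07e-05), −0.89 for Socs3 (adjusted p = 0.00161) and −0.52 for Pim1 (adjusted p = 0.0131), all on the log2 scale. Socs3 lost the call among cells of 2000 to 4000 UMIs and Pim1 in 1 fit over all 9 groups. The contrast of Cish between cells with and without an Il2ra UMI was smaller in 3-week than in 1-week accepted grafts, by a log2 difference of −0.65 (adjusted p = 0.0357). That call was lost with TMM factors (adjusted p = 0.0673), no filter, no replicate block, the UMI window, without dividing cells, without cells holding a Cd4 or a Foxp3 UMI, and on leaving out any 1 of 7 of the 8 libraries.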

How the results depend on the processing

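Of 1005 fold changes of members recomputed under alternatives, 914 kept their direction and their side of the threshold, 50 lost the threshold, 29 passed it anew and 12 changed direction. The count leaves out settings that gave no adjusted p. It also leaves out members not called in the Il2ra contrasts, in comparisons with rejecting spleen, or in the difference between rejecting and accepted recipients. None of the fold changes of Cish that were counted changed direction. With TMM factors and with DESeq2, the members called lower went from 1 to 2 between 3-week and 1-week grafts, from 3 to 5 between rejecting and accepted grafts and from 1 to 3 between rejecting and accepted spleens, and those called higher between 3-week and 1-week spleens went from 1 to 0. The members called higher in accepted spleen against naive spleen went from 2 to 4 with TMM factors or over all cells, to 1 without cells with a Cd4 UMI and to 0 among cells of 2000 to 4000 UMIs. Between 3-week and 1-week spleens, 2 members were called higher without the filter or without cells with a Cd4 UMI and 0 in 1 fit over all 9 groups, and 1, 2 and 1 were called lower (0 in the report) without the filter, over all cells and in that fit. Leaving out each library gave 0 to 2 higher and 1 lower. Over all cells 2 instead of 4 members were called higher in 1-week graft against spleen, and 3 lower in rejecting against accepted spleens, where 0 were lower without cells with a Cd4 UMI, 2 without dividing cells and 0 on leaving out 1 library.

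Among cells of 2000 to 4000 UMIs, a setting added after the data were seen for these comparisons, members called higher went from 1 to 0 between grafts labelled 24 and 3 weeks, from 4 to 2 between the spleens so labelled and from 1 to 0 between rejecting graft and spleen (2 in the fit over all 9 groups), and those lower in the change of the graft-over-spleen difference from 2 to 1, as in the fit over all 9 groups. In the Il2ra contrasts, 1 of 3 members was still called higher in 1-week grafts with no replicate block and without dividing cells. The 1 called in 3-week grafts was lost (0) with no replicate block, among cells of 2000 to 4000 UMIs and on leaving out 1 library. The 1 called lower in the change of the Il2ra contrast was not called (0) by DESeq2, which gave it no adjusted p, and was lost (0) under each of TMM, no filter, no replicate block, the UMI window, and without dividing cells, Cd4 UMIs, Foxp3 UMIs or 1 library. The causes were not tested. With a replicate block by tag number, added after the data were seen, no call of a member changed between graft and spleen at 1, 3 or 24 weeks. The change of the graft-over-spleen difference from 1 to 3 weeks was not fitted with this block. For Cish between rejecting graft and spleen the block (7.92, adjusted p = 1.04e-04) keeps 2 pairs whose spleens hold no Cish UMI, and is not read as a fold.

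Direction changed for Socs1 between 3-week and 1-week spleens among cells of 2000 to 4000 UMIs (−0.035), for Pim1 between spleens labelled 24 and 3 weeks over all cells (−0.18; −0.022 to 0.20 on leaving out a library), and between 3-week graft and spleen with TMM (−0.18), DESeq2 (−0.18) and all cells (−0.17). It changed for Socs2 between 1-week graft and spleen over all cells (−0.099) and between rejecting and accepted grafts among cells of 2000 to 4000 UMIs (0.45), for Socs3 between 1-week graft and spleen without dividing cells (0.065; −0.13 to 0.064 on leaving out a library), and for Pim1 between accepted and naive spleen among cells of 2000 to 4000 UMIs (−0.056). The difference in the share of cells with an Il2ra UMI, in percentage points, was 0.039 between 3-week and 1-week spleens, −0.050 at 500 UMIs, −0.81 unthinned and −0.060 to 0.13 on leaving out a library. Between spleens labelled 24 and 3 weeks it was −0.060, 0.020 at 500 UMIs, 0.044 unthinned and −0.13 to 0.038 on leaving out a library.

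Counts over all genes moved by over 1.5 times under the settings below. Among cells of 2000 to 4000 UMIs they went from 8196 to 4316 (grafts labelled 24 against 3 weeks), 5493 to 3320 and 5291 to 2426 (graft against spleen at 1 and, by label, 24 weeks) and 4016 to 1121 (change of the graft-over-spleen difference). For rejecting graft against spleen 1411 became 868 with DESeq2 and 3861 in the fit over all groups, 649 and 752 without replicate 1 or 3 of the spleens, and for its difference from accepted recipients 65 became 14 to 558. For cells with an Il2ra UMI, over the settings that moved the count that far, 1126 became 17 to 593 in 1-week grafts, 18 became 1 to 11 in 3-week grafts, 149 became 0 to 54 in rejecting grafts, 26 and 13 (the changes of the contrast between accepted grafts and between rejecting and accepted grafts) became 0 to 80 and 0 to 8, and 1249 became 131 to 818 in 1-week spleens. Depth limits Cish and Socs2 in rejecting spleen, with 4 and 3 UMIs in all, and the Il2ra contrasts in 3-week grafts, with 37 to 58 cells a library.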
